A study of Mus musculus with 12 samples.

Results

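RNA recovered with HP1γ was examined over a 453 kb window at the start of mouse chromosome 17 (chr17:3080000-3533000, mm9) that spans the protein-coding genes Scaf8 and Tiam2, in fibroblast-derived cells with and without phorbol ester. All regions of the deposited lists that overlap the window were taken: 13 of the 2609 regions found after PMA and 61 of the 10013 found in untreated cells. The window was chosen by the number of untreated regions in it, so the untreated numbers, widths and enrichments below are a description and carry no test. Scaf8 was placed at about 3.11 to 3.20 Mb and Tiam2 at about 3.33 to 3.52 Mb, and 5 kb were allowed on each side for the rounding of these positions. No mm9 annotation was used, so regions are given by position and are not assigned to exons, introns or UTRs, and the lists hold no strand.

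The libraries came from a line derived from mouse embryonic fibroblasts that lacks its own HP1γ (the product of Cbx3) and was complemented with HP1γ, a genotype that all 4 groups share. These groups were the HP1γ immunoprecipitate (IP) and the chromatin input of cells given 100 nM PMA in DMSO for 30 min, and the IP and input of cells without PMA, with 3 biological replicates each. Nuclei were lightly fixed with formaldehyde and their chromatin was released by DNase and sonication, and the RNA was sequenced from the IP and from the input. Each region is a stretch where RNA reads were enriched in IP over input; its fold enrichment is the authors' ratio, read as the mean over the peaks joined in the region. No library is a mock IP, no read depth or value per library is given for a region, and the cell type could not be checked against marker genes, because the lists hold no expression levels. Enrichment over input is no measure of transcript level, and fewer cells with a transcript cannot be told apart from less of it per cell.

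HP1γ reads methylated lysine on histone H3 through its chromodomain and is known both from heterochromatin and from the bodies of transcribed genes. PMA activates protein kinase C. Scaf8 encodes a protein that binds the C-terminal domain of RNA polymerase II, and in human cells it is known, with SCAF4, to prevent transcripts from ending early. Tiam2, also called STEF, encodes a guanine nucleotide exchange factor that activates the small GTPase Rac. In the RefSeq order of GRCm38.p6 the long non-coding RNA Gm34035 lies between Scaf8 and Tiam2, and Tfb1m, a methyltransferase of mitochondrial ribosomal RNA, and the claudin gene Cldn20 follow Tiam2.

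Start sequences of the genes are shown as background, and no link between them and the regions described below was tested. They run 5′ to 3′ on the plus strand, each 300 bases around an annotated start, most of them before it, with each CG dinucleotide in capitals, and come from RefSeq on GRCm38.p6, so that their positions are not those of the mm9 lists and no region was placed on them. The sequences are those of Scaf8 (chr17:3114722-3115021) and of 3 annotated starts of Tiam2, called A (chr17:3396957-3397256), B (chr17:3482065-3482364) and C (chr17:3483240-3483539).
Scaf8: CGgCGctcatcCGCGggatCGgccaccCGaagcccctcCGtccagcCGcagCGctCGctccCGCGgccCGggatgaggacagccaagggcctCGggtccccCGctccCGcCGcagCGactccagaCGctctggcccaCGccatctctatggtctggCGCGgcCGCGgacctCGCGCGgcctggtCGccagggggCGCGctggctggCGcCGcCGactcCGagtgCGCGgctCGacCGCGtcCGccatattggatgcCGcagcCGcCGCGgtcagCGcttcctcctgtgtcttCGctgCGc
Tiam2 A: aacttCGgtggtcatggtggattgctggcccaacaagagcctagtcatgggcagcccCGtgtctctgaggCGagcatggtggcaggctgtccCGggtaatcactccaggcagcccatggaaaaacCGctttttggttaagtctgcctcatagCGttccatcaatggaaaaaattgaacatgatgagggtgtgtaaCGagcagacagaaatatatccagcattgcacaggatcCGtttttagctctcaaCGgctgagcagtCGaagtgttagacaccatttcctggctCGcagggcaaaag
Tiam2 B: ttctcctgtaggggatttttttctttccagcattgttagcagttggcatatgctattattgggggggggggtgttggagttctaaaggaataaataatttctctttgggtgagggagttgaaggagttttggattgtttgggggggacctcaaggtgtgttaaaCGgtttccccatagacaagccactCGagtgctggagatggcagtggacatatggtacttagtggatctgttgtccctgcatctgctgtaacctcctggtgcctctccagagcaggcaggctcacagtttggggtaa
Tiam2 C: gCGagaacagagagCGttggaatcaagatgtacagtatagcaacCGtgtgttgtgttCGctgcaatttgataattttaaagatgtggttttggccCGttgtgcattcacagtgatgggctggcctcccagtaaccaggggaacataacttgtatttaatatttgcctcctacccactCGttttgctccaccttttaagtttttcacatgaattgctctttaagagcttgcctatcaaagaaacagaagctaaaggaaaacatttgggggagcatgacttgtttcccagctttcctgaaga
The Scaf8 sequence holds 47 CG and is 75.7% G and C, and 98.6% of the 32851 promoters in the table hold fewer CG. The Tiam2 sequences hold 11, 2 and 6 CG for A, B and C, with 51.3%, 48.3% and 42.7% G and C. Taken by number alone, these 3 starts lie well inside the Tiam2 span, while the Scaf8 start lies near the beginning of its own. No sequence from the beginning of the Tiam2 span is shown, so the genes are not compared at like places. Over all promoters the median was 7 CG (interquartile range 3 to 20), and 94.6% hold at least 1. The letters TGANTCA, a loose form of the AP-1 element that phorbol esters are known to act on, were searched on both strands (the letters read the same on either). They are in none of these 4 sequences and in 7.81% of all promoters. At that share 4 sequences would mostly lack them, so their absence is no finding.

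Neither list had a region in Scaf8. None of the 13 PMA regions and none of the 61 untreated regions overlapped its span, also when the span was widened by 10 kb on each side. The nearest untreated regions lay 27.9 kb before it (3081509 to 3082108, fold 3.52) and 18.4 kb after it (3218449 to 3218967, fold 2.60), and the nearest PMA region lay 41.8 kb after it (3241849 to 3243207, fold 3.39). The label of the locus names Scaf8 beside Tiam2, but the regions belong to the span of Tiam2 and, in smaller number, to the stretch between the genes. Tiam2 held 11 PMA regions and 45 untreated regions, the stretch between the genes 2 PMA and 10 untreated regions, and untreated cells had a further 2 regions before Scaf8 and 4 after Tiam2.

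**Figure D1:**
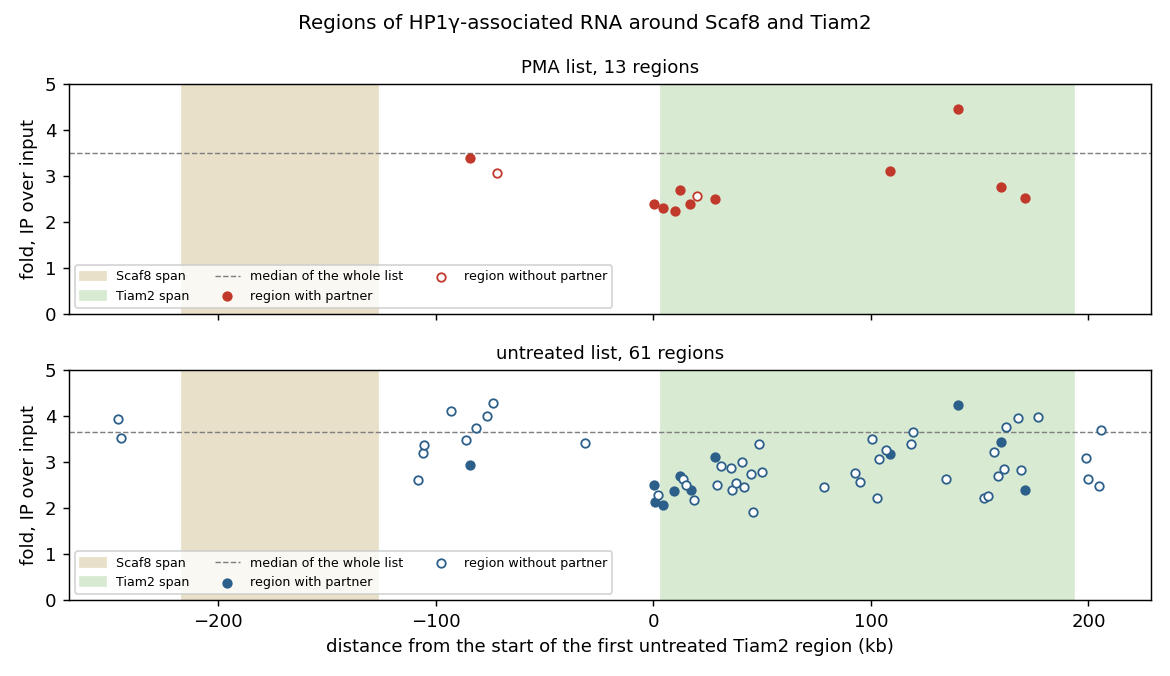
Regions of the PMA list (upper) and the untreated list (lower) by distance from the start of the first untreated Tiam2 region (x, kb) and fold enrichment of IP over input (y). Filled points overlap a region of the other list, open points do not, the dashed line is the median of the whole list, and shading marks the gene spans; the Scaf8 span is empty in both lists, and 10 of 11 PMA and 40 of 45 untreated Tiam2 regions lie below the dashed line.

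That Scaf8 had no region does not mean that no peak was called near it. Peaks were called in each replicate, numbered along the genome and then joined, and a region needed at least 3 member peaks. The numbers rose at every step along each chromosome in all 5 replicates whose peaks are in the lists, so the difference between the numbers of 2 regions gives how many peaks a replicate had between them, if no number was skipped, which was not tested. Between the last region before Scaf8 and the first after it, a stretch of 136 kb, untreated replicates 1, 2 and 3 had 20, 9 and 10 peaks. None of these peaks can be in a region, because the stretch was bounded by neighbouring regions. Their density was 14.7, 6.60 and 7.33 per 100 kb, in each replicate below its own density in Tiam2 (57.7, 52.4 and 37.9 per 100 kb). A stretch drawn to hold no region is here set beside one chosen for its regions, so the difference is no finding. For PMA this stretch could not be bounded, since the first PMA region of chromosome 17 lies after it.

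In untreated cells, the Tiam2 regions ran from 3326625 to 3504138 and covered 28.0 kb, or 15.8% of that stretch. Neighbouring regions were a median of 1223.5 bp apart, with 19 of 44 gaps under 1 kb and the widest gap 27.8 kb. All 45 regions had member peaks in each of the 3 replicates (100%, exact 95% interval 92.1 to 100, for counting error only), where 91.9% of the untreated list did. Exactly 1 peak from each replicate was present in 34 of the 45 (75.6%), against 69.9% of the list, and 11 had 4 or more member peaks. The region with the most member peaks, 6, lay at 3330446 to 3331692. Replicate support was thus even: 5 regions had more than 1 peak of replicate 1, 4 of replicate 2 and 4 of replicate 3. Of the 10 untreated regions between the genes, 8 had all 3 replicates and 4 had exactly 1 peak from each.

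After PMA, the Tiam2 regions ran from 3326666 to 3498214 and covered 10.2 kb, or 5.96% of that stretch, with a median gap of 6090.5 bp. Only replicates 2 and 3 are present in the PMA list, so each PMA region had more than 1 peak from at least 1 of them. In Tiam2, 4 regions had 1 peak of replicate 2 and 2 of replicate 3, 5 had 2 and 1, 1 had 2 and 2, and 1 had 3 and 1. The numbers of regions in the lists are therefore not built alike. When 1 untreated replicate was left out and 3 member peaks were still required, 7, 8 and 8 untreated Tiam2 regions were left without replicate 1, 2 and 3, fewer than the 11 of the PMA list. These are 15.6%, 17.8% and 17.8% of the 45, beside 15.0%, 19.9% and 23.6% of the whole untreated list. That list kept 1505, 1988 and 2367 regions, also fewer than the 2609 of the whole PMA list.

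Tiam2 regions had low fold enrichments in both lists. The median was 2.51 after PMA (range 2.23 to 4.44, n = 11, 95% order-statistic interval 2.29 to 3.09) and 2.71 in untreated cells (1.92 to 4.23, n = 45, interval 2.497 to 2.90). The medians of the whole lists were 3.50 after PMA and 3.65 in untreated cells, and only 9.24% of PMA and 12.5% of untreated regions were below the Tiam2 medians. Over the whole of chromosome 17, Tiam2 included, the medians were 3.33 after PMA (n = 159) and 3.52 untreated (n = 623). The −log10 q values of Tiam2 were not low: their median was 5.96 after PMA and 4.91 untreated, against 4.24 for the whole PMA list and 3.59 for the whole untreated list. The 2 PMA regions between the genes had folds of 3.39 and 3.05, and the 10 untreated ones a median of 3.45 (2.60 to 4.29), nearer to the whole lists than to Tiam2. Regions share their libraries and are not independent, so these differences were not tested.

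Median widths of Tiam2 regions were above those of the whole lists, but near those of chromosome 17. Their median width was 871 bp after PMA (692 to 1481, interval 695 to 1102) and 599 bp untreated (223 to 1269, interval 543 to 709), against 780 bp for the whole PMA list and 528 bp for the whole untreated list. Regions share their libraries and are not independent, and the untreated ones chose the window. These intervals are thus a description, and the differences from the whole lists were not tested. For all regions of chromosome 17, Tiam2 included, the median width was 824 bp after PMA and 552 bp untreated. With regions within 1 kb of each other merged, Tiam2 held 26 untreated regions with a median width of 1175 bp, and its PMA regions did not change. The narrowest untreated region was at 3362147 to 3362369 with a fold of 2.87, and the widest at 3496970 to 3498238 with a fold of 2.39. In Tiam2 width and fold had nearly no rank correlation across untreated regions (Spearman rho = 0.06, n = 45) and a negative one across PMA regions (rho = −0.40, n = 11), a description over regions of the same libraries.

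**Figure D2:**
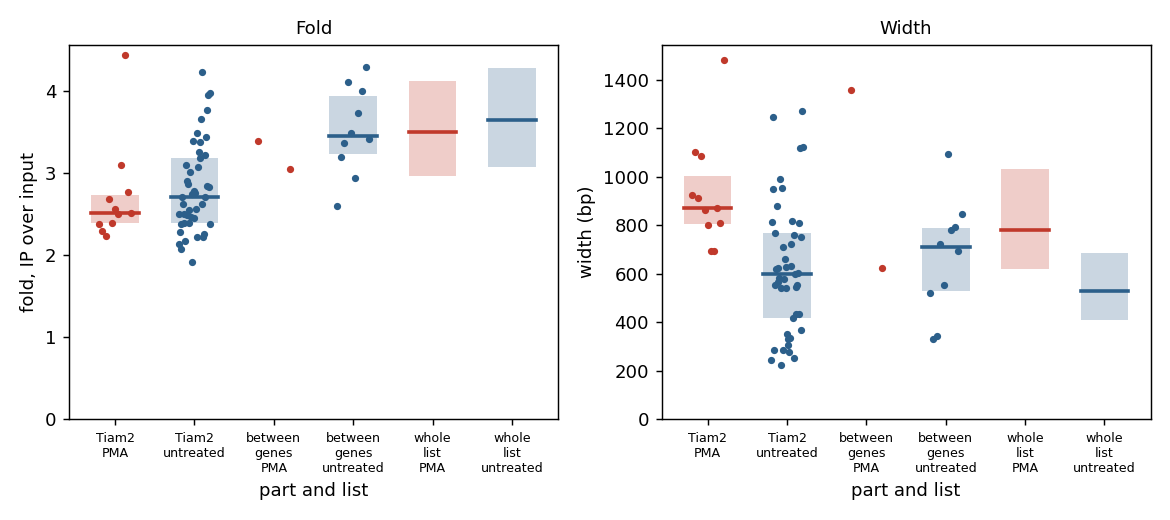
Fold enrichment of IP over input (left) and width in bp (right) of regions in Tiam2, between the genes and in the whole lists, for PMA (red) and untreated cells (blue). Points are regions, lines are medians and bars are interquartile ranges (none for the 2 PMA regions between the genes, and no points for the whole lists); the Tiam2 medians of fold, 2.51 after PMA and 2.71 untreated, lie under those of the whole lists, 3.50 after PMA and 3.65 untreated.

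Median fold was lowest in the first part of the Tiam2 span and higher towards its end. RefSeq gives the plus strand for Tiam2, so positions rise in the direction of transcription. The gene was divided at the widest interval between regions found in both lists, which gave a first stretch of 27.9 kb (3326625 to 3354521), a middle stretch of 80.5 kb (3354522 to 3435019) and a last stretch of 63.2 kb (3435020 to 3498238). The annotated starts A, B and C shown above, on another build, all have higher positions than the first stretch. These stretches are thus parts of an approximate span and give no distance from a transcript start. The median fold was 2.39 after PMA (n = 6) and 2.38 untreated (n = 10) in the first stretch, and no region of it reached 3 in either list. In the middle stretch it was 2.51 for the single PMA region and 2.76 untreated (n = 19), and in the last stretch 2.93 after PMA (n = 4) and 3.18 untreated (n = 15). Across regions, fold and position had a Spearman rho of 0.71 after PMA (Pearson r = 0.55, n = 11) and 0.50 untreated (r = 0.52, n = 45), which describes these regions and not a spread between cultures.

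The 5 untreated Tiam2 regions with the highest fold all lay in the later part of the gene. The first was at 3466520 to 3467118 with a fold of 4.23, followed by 3503017 to 3504138 at 3.98, 3494207 to 3494573 at 3.95, 3488352 to 3489468 at 3.77 and 3445639 to 3446396 at 3.66. Of these, only the first overlapped a PMA region. The 3 that follow it also had the highest −log10 q of the gene, 11.6, 12.7 and 12.6 in the same order. The lowest fold, 1.92, was in the middle stretch at 3372257 to 3372917. Between the genes the highest fold was 4.29 at 3252474 to 3253168, and the highest −log10 q was 13.6 at 3233502 to 3234224 with a fold of 4.11; neither overlapped a PMA region.

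Nearly every PMA region of Tiam2 lay where untreated cells had one. An overlap of 1 bp or more was found for 10 of the 11 PMA regions (90.9%, exact 95% interval 58.7 to 99.8), against 54.8% of the whole PMA list. In the other direction, 11 of 45 untreated Tiam2 regions overlapped a PMA region (24.4%, 12.9 to 39.5), against 15.5% of the whole untreated list. This share was 42.9%, 62.5% and 37.5% of the 7, 8 and 8 regions left without untreated replicate 1, 2 and 3, where the whole list gave 34.1%, 29.5% and 27.9%, and it was 40.0% with partners within 1 kb, against 21.1% of the whole list. The intervals cover counting error only. The untreated list is denser in Tiam2 than over the genome, by the choice of the window, and these shares were not corrected for that. Untreated Tiam2 regions with a PMA partner were wider than those without, with medians of 808 bp (n = 11) and 567.5 bp (n = 34), and had medians of fold of 2.497 and 2.75. A wider region has more room for an overlap of 1 bp, so the difference in width may follow from how partners were defined.

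In the first stretch, 5 of the 6 PMA regions had an untreated partner, and folds of partners were close. The first PMA region, at 3326666 to 3327588, had a fold of 2.38 and overlapped a pair of untreated regions, at 3326625 to 3326867 with 2.497 and at 3326965 to 3327778 with 2.14. The next had 2.29 at 3330363 to 3331464 against 2.07 untreated, and the one after it had 2.23 at 3336130 to 3337039 against 2.37 untreated. In these pairs fold differed by at most 0.242. At 3338363 to 3339447 the PMA region had 2.69 and its untreated partner 2.70, with −log10 q of 13.4 and 7.81, and at 3343203 to 3344066 both had 2.39. The other PMA region there, at 3346206 to 3347005 with a fold of 2.56, had no partner, and the nearest untreated region was 727 bp away.

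In the rest of the gene all 5 PMA regions had a partner. The PMA region at 3354522 to 3355216 had a fold of 2.51 against 3.10 in untreated cells. The PMA region at 3435101 to 3435792 had 3.09 against 3.18. The highest PMA fold of the gene, 4.44 at 3466225 to 3467095, had as partner the untreated region with the highest fold, 4.23, so the strongest place of Tiam2 was the same in both lists. The PMA region at 3486179 to 3486987 had 2.76 against 3.44 untreated, the largest difference in Tiam2, and that at 3496734 to 3498214 had 2.51 against 2.39. Over the 11 overlapping pairs of Tiam2, PMA fold was higher in 5, the median ratio of PMA to untreated fold was 0.995, and 7 pairs had a ratio of 0.9 to 1.1. Over the 1572 pairs of the whole lists the median ratio was 0.980 and PMA fold was higher in 45.9%. Of these 1572 pairs, 587 had a ratio of 0.9 to 1.1. Folds of the 11 pairs had a Pearson r of 0.88 and a Spearman rho of 0.87 across pairs, against 0.63 and 0.62 for all pairs. PMA regions were wider than their partner in 8 of the 11 (72.7%), near the 73.0% of all pairs. The median ratio of width was 1.17, against 1.27 for all pairs.

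**Figure D3:**
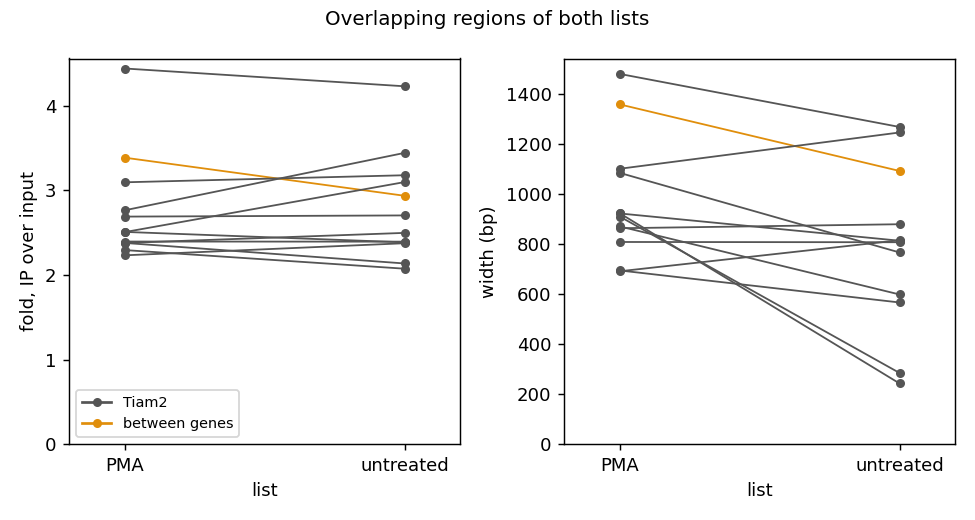
Fold enrichment (left) and width in bp (right) of the 12 overlapping pairs, with the PMA region at left and the untreated region at right of each line; grey lines are the 11 pairs of Tiam2 and the orange line is the pair between the genes. The lines of fold are nearly level except at 3 pairs, and the steepest lines of width join PMA regions of 923 and 910 bp to untreated regions of 243 and 285 bp.

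Between the genes, the only pair was the PMA region at 3241849 to 3243207, with a fold of 3.39, and the untreated region at 3242027 to 3243119, with 2.94. The other PMA region, at 3254380 to 3255003, had a fold of 3.05 and lay 1211 bp from the untreated region with the highest fold there, 4.29.

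The middle stretch of Tiam2 was bounded by the widest interval without a PMA region in the gene, so a low PMA count there follows from how it was drawn and is no finding. In that interval of 79.9 kb, from 3355217 to 3435100, the PMA list had no region and the untreated list had 18, with folds of 1.92 to 3.49 (median 2.75) and −log10 q of 2.04 to 9.62. Of these 18, 15 had exactly 1 peak per replicate and 3 had 4 member peaks. In the first stretch the lists held 6 PMA and 10 untreated regions, in the middle stretch 1 PMA and 19 untreated regions, and in the last stretch 4 PMA and 15 untreated regions. Next, 3 member peaks had to come from 2 of the untreated replicates. The middle stretch then kept 2 of its 19 regions whichever replicate was left out. The first stretch kept 3, 3 and 1 of 10, and the last 2, 2 and 4 of 15. Of the whole untreated list, 15.0%, 19.9% and 23.6% were kept without replicate 1, 2 and 3. No difference between the stretches was tested.

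Peaks were called in this interval in every replicate of both lists. Between the same shared regions, PMA replicates 2 and 3 had 29 and 64 peaks in the middle stretch, and untreated replicates 1, 2 and 3 had 50, 40 and 27. As a share of all peaks of the replicate, which differ in total, these were 0.0586% and 0.0694% after PMA and 0.0572%, 0.0981% and 0.0807% untreated. The ranges overlap on both scales; a PMA replicate was highest by number and an untreated replicate by share. Of these peaks, 27 of 29 and 63 of 64 of the PMA replicates were in no region, while 20 peaks of each untreated replicate were in one, that is 40.0%, 50.0% and 74.1%. In the first stretch PMA replicates had 19 and 24 peaks and each untreated replicate had 16, but as a share of all peaks of the replicate these were 0.0384% and 0.0260% after PMA and 0.0183%, 0.0392% and 0.0478% untreated. The numbers thus lay apart and the shares overlapped. In the last stretch PMA replicates had 29 and 39 peaks and untreated replicates 33, 34 and 22, which overlap.

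Over Tiam2 as a whole, from 3326625 to 3498238, PMA replicates 2 and 3 had 77 and 127 peaks (102 ± 35.4, SD, n = 2) and untreated replicates had 99, 90 and 65 (84.7 ± 17.6, SD, n = 3). Of these, 24.7% and 12.6% of the PMA peaks and 48.5%, 53.3% and 73.8% of the untreated peaks were in a region of the lists. Every PMA value was below every untreated one, and this holds for the whole lists too, where the shares were 8.85% and 4.34% after PMA and 13.6%, 27.1% and 31.3% untreated. In each of the 5 replicates the share was higher in Tiam2 than in its list. The window was chosen for its many untreated regions, and this stretch begins and ends at regions of both lists. A higher share thus follows at least in part from that choice and is no finding. The PMA list had no member peaks of replicate 1, and the part of that in these shares was not tested. Of all peaks that a replicate had, Tiam2 held 0.156% and 0.138% after PMA and 0.113%, 0.221% and 0.194% untreated, and these ranges overlap.

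**Figure D4:**
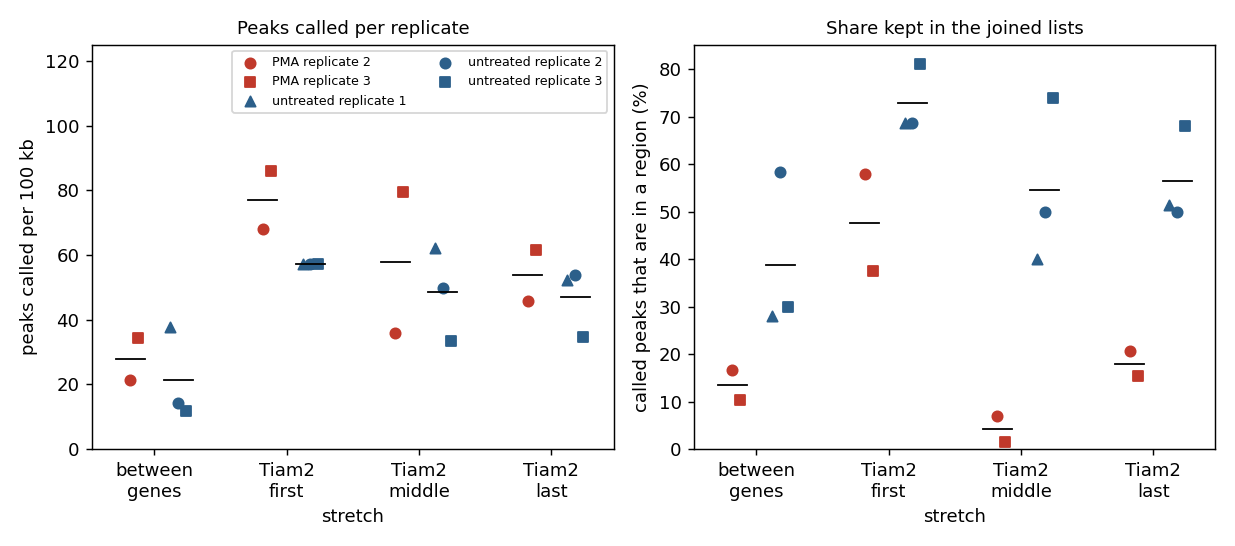
Peaks called per 100 kb (left) and the percentage of them that are in a region of the lists (right), in the stretch between the genes and the first, middle and last stretch of Tiam2. Each symbol is a replicate, PMA in red left of untreated in blue, and black lines are group means; in the middle stretch PMA replicates had 36.0 and 79.5 peaks per 100 kb and untreated replicates 62.1, 49.7 and 33.5, while 6.90% and 1.56% of the PMA peaks and 40.0% to 74.1% of the untreated peaks were in a region.

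The balance between Tiam2 and the stretch before it was then compared between conditions over replicates. Of the peaks between the shared region at 3241849 and the end of the last shared region of Tiam2, Tiam2 held 81.1% and 81.4% in PMA replicates 2 and 3, and 75.6%, 88.2% and 86.7% in untreated replicates 1, 2 and 3. The PMA values lie inside the untreated range. The means were 81.2% ± 0.253 after PMA (SD, n = 2) and 83.5% ± 6.90 untreated (SD, n = 3), a difference of −2.26 percentage points that is smaller than the spread of the untreated replicates (exact permutation test over replicates, two-sided p = 0.80). With 2 against 3 replicates this test cannot give a p below 0.10. The untreated peaks include members of the regions for which the window was chosen, and shared regions bound the stretch. The test is not free of that choice, so nothing is concluded from it. The difference was −6.22 without untreated replicate 1 and 0.112 without untreated replicate 2, so its direction rests on single replicates.

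The window ends in a wide gap of both lists. Its last untreated region lay at 3532161 to 3532963 with a fold of 3.69, and the next regions of the chromosome began at 4995924 after PMA (fold 4.26) and at 4995963 untreated (fold 2.96). At its other edge the first untreated region, at 3080579 to 3080848 with a fold of 3.94, was the first of the chromosome. Of the 4 untreated regions after Tiam2, the nearest began 5.18 kb after its span, at 3525177, with a fold of 3.08.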

How the data were processed

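RNA of HP1γ IP and input was sequenced in 12 stranded libraries of 4 groups, with 65 bp single-end reads, per the labels' protocols. Per the submitters' processing notes, MACS2 2.1.0, STAR 2.5.0a, cutadapt 1.11, featureCounts 1.4.6-p3, deepTools and the build mm9 were used; their roles and settings are not stated there.

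The authors deposited 1 list of joined peaks per condition, IP against input. Each region carries the deposited fold enrichment (a ratio), −log10 p and −log10 q values, a score and a summit offset; p, score and offset were not used here. Read depth is unknown for every library.

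Regions overlapping the window were counted, and partners overlap by at least 1 bp. Starts are 1-based. Named regions are all PMA regions and, per gene or stretch, the untreated regions with the highest fold (5), the highest −log10 q (3), the widest, narrowest, first and last. Peaks per replicate were taken from member peak numbers between regions shared by both lists. The total of a replicate was taken as its highest member peak number, a lower bound. Their share in Tiam2 was compared by exact permutation over replicates; shares carry Clopper-Pearson and medians order-statistic 95% intervals. The window, genes and comparisons were chosen with earlier results of these data known. The code was tested on simulated data. Python 3.11.15, pandas 2.3.3, numpy 2.4.6, scipy 1.17.1 and matplotlib 3.10.9 were used. Alternatives were wider spans, a q limit, merging, other overlaps and leaving out replicates.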

Additional observations from a re-analysis of the deposited data

How the results depend on the processing

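In 49 of 61 alternative values, over 10 results, neither the direction nor the call changed and untested values stayed within their interval or, for counts, within 1.5 times. No alternative run put a region in Scaf8, so its widths, folds and shares have no value. Only the wider span could have added a region there, since the other alternatives remove or join regions or narrow the span. The Scaf8 counts are among the 49, and most of them could not change. Some others could not either. All 45 untreated Tiam2 regions already had full replicate support. PMA regions of Tiam2 had a lowest −log10 q of 3.82 and a smallest gap of 1323 bp, so the q limit and merging left them alone. The test of the peak share could not give a p below 0.10 in any setting. Merging regions within 1 kb left 26 untreated Tiam2 regions with a median width of 1175 bp, by its construction, and the PMA regions as they were. Leaving out 1 untreated replicate gave 7 to 8 untreated Tiam2 regions, a median width of 630 to 847 bp, a median fold of 2.26 to 2.57 and a share with a PMA partner of 37.5% to 62.5%; these keep only regions with 3 member peaks from the other replicates, with the deposited bounds and folds. With partners within 1 kb the share was 40.0%, and with regions merged it was 34.6%. It was lower than the 24.4% of the main setting with the wider spans (23.4%) and with the q limit (18.9%). The exact spans of the genes, without allowance for rounding, and the list held to full replicate support were added after seeing the data. The exact spans hold 10 PMA and 42 untreated Tiam2 regions, and 21.4% of the latter had a PMA partner. The difference in the Tiam2 share of called peaks ranged from −6.22 to 0.112 percentage points when 1 replicate of either condition was left out, and turned without untreated replicate 2, at 0.112. In the replicate block, within replicate numbers 2 and 3, it was −6.22 (exact permutation p = 0.50, the smallest that 2 pairs can give); the labels give these numbers no shared origin, so they are not taken to pair the cultures. Lists joined from unequal numbers of replicates and the unknown depth limit every comparison between conditions.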
